A study of Mus musculus with 12 samples.

Results

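Complement components and regulators were followed in the mouse fibroblast line 3T3 with and without extracellular vesicles (EVs) from breast cancer cells. The genes were taken by symbol from the deposited count table: C3, C4b, C1ra, C1s1, Serping1, Cfb, Cfi, Cd55 and Masp1. All 9 were found among its 32544 rows, and 8 passed the filter on low counts; Cfi did not. There were 4 groups of 3 libraries. Untreated 3T3 cells were the control. The other groups were 3T3 cells exposed for 24 h to EVs from MDA-MB-468 cells, a human breast cancer line. The donor cells were control cells (shCon), cells with CRIPTO knocked down (shCr) or cells overexpressing CRIPTO (CrOE). Mouse Tdgf1 encodes CRIPTO, a protein of the cell surface. Recipient cells were 1 cell line throughout, so the values describe cultured fibroblasts and not a tumour. The untreated libraries received no EVs of any kind. The labels do not say whether the libraries of a group came from separate cultures, so p-values measure only the spread between these libraries, which may be technical.

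Complement is a cascade of serum and cell-surface proteins that marks surfaces for clearance and draws in immune cells. The classical and lectin pathways start with recognition proteins that activate serine proteases, C1r and C1s in the former and the MASP proteases in the latter. These cleave C4 and C2 to build an enzyme that cleaves C3, and the alternative pathway uses factor B to cleave more C3. Inhibitors act at each step, C1 inhibitor on the proteases and CD55 and factor I on the C3-cleaving enzymes. The liver makes most serum complement, and fibroblasts are a known local source of C3 and of the C1 proteases.

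The libraries held 25960054 to 37774020 estimated counts, and 14279 genes were tested. Replicate libraries correlated at 0.986 to 0.994 (Pearson's r across genes, which are not independent replicates). Levels are given as CPM, counts scaled to a library total of 1e+06. Tdgf1 had 0 to 3 counts in every library. As a mouse gene of the recipient cells, it gives no check of the CRIPTO status of the human donor cells. The CrOE EV libraries stood apart from the rest: 73.7% of all tested genes were called in the comparison with untreated cells by the rule used throughout (a Benjamini-Hochberg adjusted p under 0.05 in edgeR's quasi-likelihood test). The group name of those libraries rests on matching their column headings to samples by elimination. The summed level of 11 fibroblast markers was 19811 to 21316 CPM without EVs, 24969 to 25330 after shCon EVs, 15438 to 17716 with shCr EVs and 8659 to 9036 after CrOE EVs. All 11 passed the filter, and after CrOE EVs 10 of them, Col1a1 and Pdgfra among them, were lower than in untreated cells. Fn1 was not called. Hepatocyte markers summed to at most 0.439 CPM, epithelial markers to at most 1.55 CPM and endothelial markers to at most 2.62 CPM. In bulk RNA, fewer cells that make a transcript and less of it per cell cannot be told apart.

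The complement genes fell into a group of high abundance and a group of low abundance. Per kb of exon, C3 in untreated cells stood at 373 CPM, rank 100 of 13842 genes with a length. C1s1 stood at 249 CPM per kb (rank 175) and C1ra at 119.5 (rank 373). C4b, Serping1, Cd55, Cfb and Masp1 lay between 4.02 and 7.32 CPM per kb. The untreated ranks of these 5 genes ran from 5794 to 7771. Lengths from the longest transcript in place of all exons moved Masp1 from 4.02 to 7.39 CPM per kb and Cd55 from 7.32 to 11.3. Together the 9 genes took 0.313% to 0.326% of the counts of an untreated library. That share was 0.360% to 0.368% after shCon EVs, 0.446% to 0.473% with shCr EVs and 0.0335% to 0.0414% after CrOE EVs, with no overlap between groups. C3 alone held more than all the other members combined in every library.

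The 3 most abundant members had an entry in the RefSeq promoter table (GRCm38.p6), and the 250 bases before their start are shown because these were the members with the most transcript. The C3 window is chr17:57228137-57228386 on the minus strand, the C1ra window chr6:124512371-124512620 on the plus strand and the C1s1 window chr6:124542360-124542609 on the minus strand. Each is written 5′ to 3′ and ends at the base before the start. Capitals mark a match to the C/EBP letters TTGCNNAA, searched on both strands.
C3: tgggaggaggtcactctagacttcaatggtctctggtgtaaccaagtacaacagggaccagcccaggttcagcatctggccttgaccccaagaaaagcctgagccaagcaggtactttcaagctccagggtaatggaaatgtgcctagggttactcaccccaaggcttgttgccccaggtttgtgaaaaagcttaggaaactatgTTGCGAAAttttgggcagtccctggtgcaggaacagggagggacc
C1ra: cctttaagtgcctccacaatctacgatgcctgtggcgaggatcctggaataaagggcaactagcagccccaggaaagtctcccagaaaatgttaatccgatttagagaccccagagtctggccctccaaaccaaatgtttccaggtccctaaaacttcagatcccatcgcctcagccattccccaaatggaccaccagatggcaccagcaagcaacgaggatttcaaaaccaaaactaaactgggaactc
C1s1: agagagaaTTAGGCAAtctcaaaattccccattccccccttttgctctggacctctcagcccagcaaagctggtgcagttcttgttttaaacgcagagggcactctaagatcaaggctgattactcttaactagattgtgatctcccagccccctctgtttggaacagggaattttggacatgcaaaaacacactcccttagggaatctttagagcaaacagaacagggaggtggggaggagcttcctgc

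The match in C3 lies at positions -45 to -38 from the start and reads TTGCGAAA. In C1s1 it lies at -242 to -235, and the window of another C1s1 start in the table holds no match. The printed C1ra bases hold none; its matches, to the C/EBP letters and to the STAT letters TTCNNNGAA, fall in the 50 bases after the start. Cd55, the other member with an entry, held no match. The cores of the interferon-stimulated response element and of the NF-kB site, searched in the same way, matched in none of the members' windows. No part of any of these motifs was allowed to mismatch, and matches of different motifs did not overlap. Of all 32851 windows in the table, 10.8% held the C/EBP letters, 8.3% the STAT letters, 3.44% the interferon core and 1.63% the NF-kB core. A match is a description of the letters only.

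**Figure D1:**
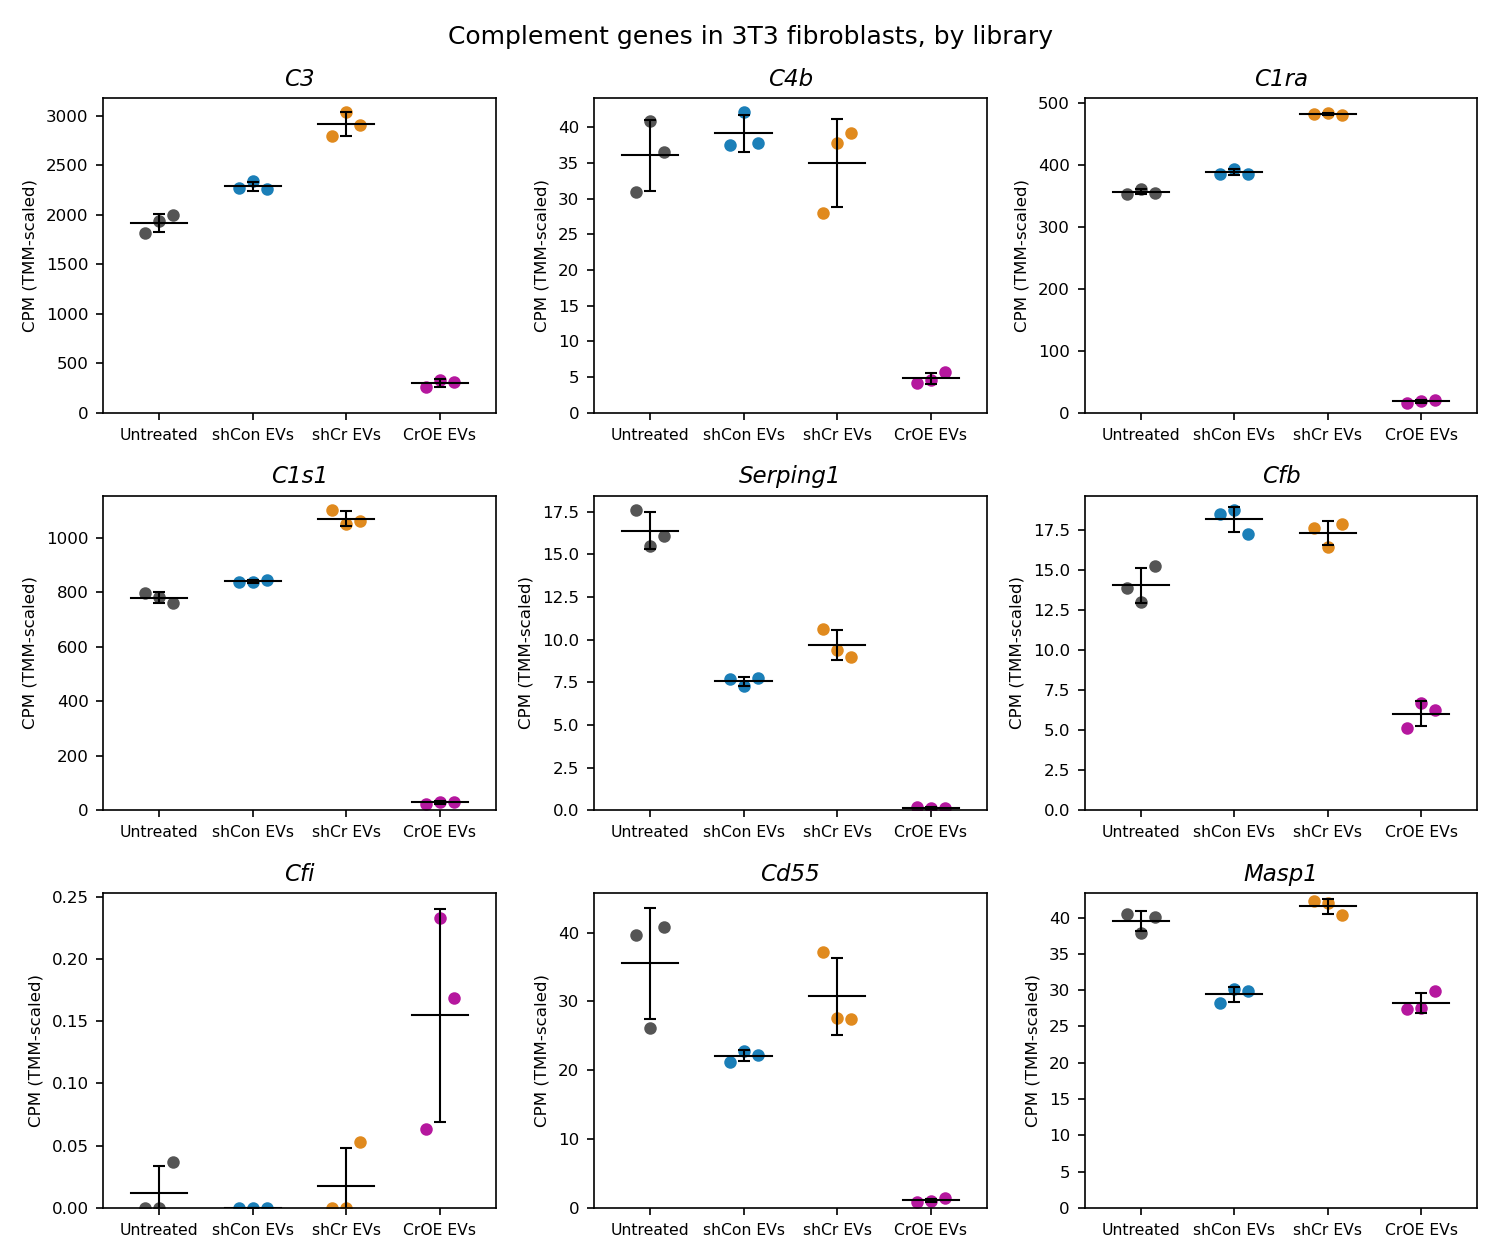
Level of each complement gene in each of the 12 libraries, in TMM-scaled CPM on linear axes from 0, by group, with 1 point per library, lines at the mean and bars of 1 SD. The CrOE EV libraries lie below all others for 7 of the 8 tested genes, while for Masp1 they overlap the shCon EV libraries.

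C3, the protein on which the complement pathways meet, was lowest after CrOE EVs and highest with shCr EVs. The untreated libraries had 1821, 1933 and 2001 CPM (1919 ± 91.0, SD, n = 3). After shCon EVs the values were 2269, 2339.9 and 2259 CPM, and with shCr EVs 2798, 3041 and 2910.1 CPM. After CrOE EVs they were 257, 330.3 and 314 CPM. No group overlapped another, and the order of the means (300.4 ± 38.6, 1919 ± 91.0, 2289 ± 44.3 and 2916 ± 121 CPM, SD, n = 3) was CrOE EV, untreated, shCon EV, shCr EV. C3 fell by 2.68 on the log2 scale after CrOE EVs (SE 0.084, adjusted p = 1.33e-11, edgeR's quasi-likelihood test), a 6.39-fold lower level than in untreated cells. It rose with shCr EVs, 1.52-fold (log2 fold change 0.60, SE 0.080, adjusted p = 6.57e-05, edgeR). The rise after shCon EVs was 1.19-fold (0.25, SE 0.079, adjusted p = 0.0231). That call ended when untreated replicate 1 or any 1 shCon EV replicate was left out, with adjusted p of 0.0511 to 0.108 over those 4 settings.

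C4b, the mouse C4 protein cleaved by C1s and the MASP proteases, was called in the comparisons with CrOE EVs and in no other. Untreated libraries had 30.9, 40.8 and 36.6 CPM, shCon EV libraries 37.5, 42.2 and 37.7, and shCr EV libraries 28.0, 37.8 and 39.2. The CrOE EV libraries had 4.15, 4.63 and 5.73 CPM, below every other library. C4b fell by 2.89 on the log2 scale from untreated cells (SE 0.16, adjusted p = 2.45e-09, edgeR's quasi-likelihood test), a 7.43-fold lower level. Among the other groups the 3 comparisons gave adjusted p of 0.531 to 0.833, and their libraries overlapped. Of the 31-base stretches in C4b transcripts, 48.3% also occur in another gene, most often C4a, which has no row in the table. Counts of C4b may therefore hold reads of its near-identical copy.

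C1ra and C1s1, the genes of the classical-pathway proteases C1r and C1s, moved together. C1ra had 354, 361 and 354 CPM in untreated libraries, 384, 394 and 386 after shCon EVs, 482, 484 and 479.8 with shCr EVs and 15.6, 19.1 and 20.7 after CrOE EVs. C1s1 had 799.6, 782 and 761 CPM in untreated libraries and 839, 837 and 845 after shCon EVs. It had 1102, 1050.2 and 1061 CPM with shCr EVs and 23.6, 31.9 and 31.9 after CrOE EVs. For both genes no group overlapped another, and the shCr EV libraries were highest and the CrOE EV libraries lowest. The coefficient of variation of C1ra was 1.14% in untreated and 0.454% in shCr EV libraries.

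After CrOE EVs, C1ra was 19.3-fold lower than in untreated cells (log2 fold change -4.27, SE 0.086, adjusted p = 3.63e-13, edgeR's quasi-likelihood test). C1s1 was 26.8-fold lower (-4.74, SE 0.10, adjusted p = 5.88e-13). After shCr EVs both rose, C1ra 1.35-fold (0.44, adjusted p = 0.000456) and C1s1 1.37-fold (0.46, adjusted p = 0.00121). After shCon EVs neither was called, with log2 fold changes of 0.12 (adjusted p = 0.211) and 0.11 (adjusted p = 0.368). A model of only the untreated and shCon EV groups did call both small rises (adjusted p = 0.0279 and 0.0363).

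Both protease genes share sequence with a neighbouring copy. Of the 31-base stretches of C1ra, 59.3% occur in another gene, most often C1rb, and of those of C1s1, 33.5%, most often in C1s2. The split of counts between the copies is therefore uncertain. With each pair of copies summed, every call of C1ra and C1s1 was as before. The copies themselves fell in the same way after CrOE EVs, C1rb from 142 to 4.39 CPM (-5.01) and C1s2 from 91.3 to 2.64 CPM (-5.10). Exons of C1s1 also overlap, over 18.4% of their length, an antisense gene, Gm16567. The library kit marks strand, but whether the counting used it is not stated.

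Masp1, the gene of a lectin-pathway protease family member, followed another pattern. Untreated libraries had 40.5, 37.9 and 40.1 CPM, shCr EV libraries 42.3, 42.0 and 40.4, shCon EV libraries 28.2, 30.2 and 29.9, and CrOE EV libraries 27.4, 27.5 and 29.8. The untreated and shCr EV libraries were high and overlapped, and the shCon and CrOE EV libraries were low and overlapped. Masp1 fell 1.34-fold after shCon EVs (log2 fold change -0.42, SE 0.056, adjusted p = 7.62e-05, edgeR's quasi-likelihood test) and 1.40-fold after CrOE EVs (-0.48, SE 0.056, adjusted p = 4.58e-06). After shCr EVs its level was 41.6 ± 1.04 CPM against 39.5 ± 1.39 CPM in untreated cells (SD, n = 3; adjusted p = 0.329). CrOE EVs against shCon EVs gave -0.06 (adjusted p = 0.368).

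Cfb, the gene of factor B of the alternative pathway, was the other member with a small fall after CrOE EVs. Untreated libraries had 13.9, 13.0 and 15.2 CPM, shCon EV libraries 18.5, 18.7 and 17.3, shCr EV libraries 17.6, 16.4 and 17.9, and CrOE EV libraries 5.17, 6.69 and 6.26. Both the shCon and the shCr EV libraries lay above the untreated ones, and the CrOE EV libraries below them. Cfb fell 2.32-fold after CrOE EVs (log2 fold change -1.21, SE 0.098, adjusted p = 1.24e-07, edgeR's quasi-likelihood test) and rose 1.29-fold after shCon EVs (0.37, SE 0.092, adjusted p = 0.00677). The rise with shCr EVs (0.30, adjusted p = 0.0205) was no call without untreated replicate 1, untreated replicate 2 or shCr EV replicate 3, with adjusted p of 0.0638 to 0.0741. Of the 31-base stretches of Cfb, 75.5% occur in another gene, most often Gm20547, an overlapping gene on the same strand.

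Cfi, the gene of the protease factor I that inactivates C3b and C4b, was close to undetected. It had 0, 0 and 1 counts in untreated libraries, 0 in each shCon EV library, 0, 0 and 2 with shCr EVs and 2, 8 and 6 after CrOE EVs. The first 3 groups lie at the detection floor of 3 counts per library, and the gene did not pass the filter. Without the filter, edgeR's quasi-likelihood test gave adjusted p of 0.0315, 0.00713 and 0.0419 for CrOE EVs against untreated, shCon EV and shCr EV cells. These values rest on at most 8 counts in a library, seen above the floor only in the CrOE EV group, so they are no result. Cfi was the only member whose few counts were highest after CrOE EVs.

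Serping1, the gene of C1 inhibitor, which blocks C1r, C1s and the MASP proteases, was lower after all 3 kinds of EV. Untreated libraries had 17.6, 15.5 and 16.1 CPM, shCon EV libraries 7.69, 7.27 and 7.75, and shCr EV libraries 10.6, 9.42 and 8.98. The CrOE EV libraries had 0.222, 0.145 and 0.112 CPM, which are 7, 5 and 4 counts. No group overlapped another. Serping1 fell 2.16-fold after shCon EVs (log2 fold change -1.11, SE 0.096, adjusted p = 1.9e-06, edgeR's quasi-likelihood test) and 1.69-fold with shCr EVs (-0.76, SE 0.093, adjusted p = 3.7e-05). After CrOE EVs the fitted fall was 6.66 on the log2 scale (adjusted p = 1.41e-12). The size of that fall rests on 16 counts: the exact 95% Poisson interval of their sum puts the level 64.0 to 182-fold below untreated cells, for counting error only. Serping1 shares none of its 31-base stretches with another gene.

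Cd55, the gene of decay-accelerating factor, a membrane protein that takes apart the C3-cleaving enzymes, was near 1 CPM after CrOE EVs. Untreated libraries had 39.6, 26.2 and 40.8 CPM, shCon EV libraries 21.3, 22.8 and 22.3, shCr EV libraries 37.3, 27.6 and 27.4, and CrOE EV libraries 0.920, 1.02 and 1.38. Replicates were less even here than for C1ra, with untreated replicate 2 low and shCr EV replicate 1 high. The share of mitochondrially encoded counts was 0.495%, 1.64% and 0.991% in the untreated libraries in the same order, 0.622%, 1.44% and 1.70% with shCr EVs, 1.35% to 1.64% after shCon EVs and 0.693% to 1.44% after CrOE EVs. The untreated library low in Cd55 had the highest share of its group and the shCr EV library high in Cd55 the lowest, and the part of that share in the result was not tested. Cd55 fell 31.9-fold after CrOE EVs (log2 fold change -4.99, SE 0.22, adjusted p = 3.31e-10, edgeR's quasi-likelihood test) and 1.61-fold after shCon EVs (-0.68, SE 0.16, adjusted p = 0.00506). After shCr EVs the level was 30.8 ± 5.62 CPM against 35.5 ± 8.11 CPM (SD, n = 3; log2 fold change -0.21, adjusted p = 0.329). Without untreated replicate 2 that difference became a call (-0.39, adjusted p = 0.0309). Exons of Cd55 overlap an antisense gene over 2.1% of their length, and 11.4% of its 31-base stretches occur in another gene, most often Cd55b.

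**Figure D2:**
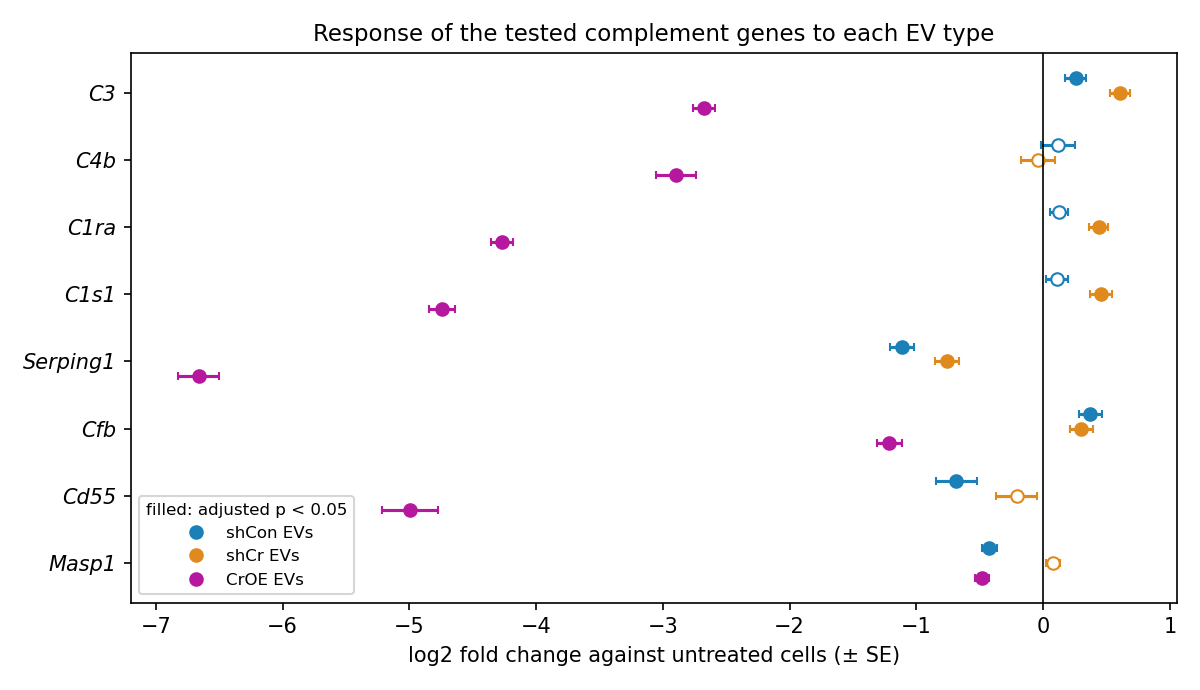
Log2 fold change of each of the 8 tested complement genes after each kind of EV against untreated cells, with bars of 1 SE; filled points are calls by edgeR. After CrOE EVs the values run from -6.66 (Serping1) to -0.48 (Masp1), and after the other EVs they lie between -1.11 and 0.60.

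The counts of calls among the 8 tested members were set beside those among all tested genes. After shCon EVs 5 of 8 were called against untreated cells, 2 higher (C3 and Cfb) and 3 lower (Serping1, Cd55 and Masp1), where 38.1% of all genes were called, 18% higher and 20.2% lower. After shCr EVs 4 were higher (C3, C1ra, C1s1 and Cfb) and 1 lower (Serping1), with 37.3% of all genes called, 18.4% higher and 18.8% lower. After CrOE EVs all 8 were lower, where 37% of all genes were lower and 36.7% higher. At a change of at least 2-fold, 7 of the 8 were lower after CrOE EVs, all but Masp1, against 18.7% of all genes. With that threshold 1 member (Serping1) was called after shCon EVs and 0 with shCr EVs, against 6.04% and 6.28% of all genes. The libraries of the compared groups did not overlap for 7 members after shCon EVs, 5 with shCr EVs and 8 after CrOE EVs, which held for 54.2%, 41.9% and 77.7% of all genes. The members' median log2 fold changes were 0.11, 0.19 and -3.58 after shCon, shCr and CrOE EVs, and those of all tested genes 0.0069, 0.020 and 0.0078. These comparisons share the untreated libraries. In an F-test over the 4 groups all 8 were called, against 81.3% of all genes.

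Libraries of different EV groups were then compared, to see whether complement levels went with CRIPTO in the donors. No separate control group stands for the overexpressing donors. In comparisons with CrOE EVs, CRIPTO and other differences between the donor cells therefore cannot be told apart. With shCr against shCon EVs, 5 of 8 members were higher and 0 lower, where 8.73% of all genes were called, 5.22% higher and 3.51% lower. None of the 5 reached a 2-fold change, as 0.756% of all genes did. The libraries did not overlap for 6 members, against 28% of all genes. The 5 were C3 (log2 fold change 0.35, adjusted p = 0.0165), C1ra (0.31, adjusted p = 0.019), C1s1 (0.35, adjusted p = 0.027), Serping1 (0.35, adjusted p = 0.0419) and Masp1 (0.50, adjusted p = 0.000158), all by edgeR's quasi-likelihood test. Their folds lay between 1.24 and 1.41. Leaving out any 1 shCon EV replicate or shCr EV replicate 2 left Masp1 as the only call, with log2 fold changes of C3, C1ra and C1s1 between 0.30 and 0.37 in those settings. Adjusted p then lay between 0.0515 and 0.0995 for these 3 genes. In those settings 632 to 958 of all tested genes were called, against 1247 with all libraries. The call of Serping1 ended in 8 of 12 such settings, and also without the low-count filter (adjusted p = 0.0832) and in a model of the 2 groups alone (0.087). Cd55 gave 0.47 (adjusted p = 0.0945) with no overlap of the libraries, and became a call without untreated replicate 2 (adjusted p = 0.0271). C4b (-0.16, adjusted p = 0.551) and Cfb (-0.07, adjusted p = 0.714) overlapped between the groups.

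With CrOE against shCon EVs, 7 of 8 members were lower, all but Masp1, where 72.6% of all genes were called, 36.1% lower and 36.5% higher. Each of the 7 changed at least 2-fold, as did 17.9% of all genes in that direction, and the libraries did not overlap for 7 members and 80.5% of all genes. The log2 fold changes of the 7 ran from -5.55 (Serping1) to -1.59 (Cfb). Against shCr EVs all 8 were lower, where 73.9% of all genes were called, 37% lower and 36.9% higher. At least 2-fold lower were 7 members and 18.6% of all genes, and the libraries did not overlap for 8 members and 74% of all genes. These values ran from -5.90 (Serping1) to -0.56 (Masp1), with C1s1 at -5.20 and C3 at -3.28. Of the 8 members, 4 (C1ra, C1s1, C3 and Masp1) had their highest group mean with shCr EVs.

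The proportions between the members moved, because they changed by unequal amounts and, after shCon and shCr EVs, not all in the same direction. The level of Serping1 per kb was 1.91% ± 0.113 of that of its targets C1ra plus C1s1 in untreated cells (SD, n = 3). It was 0.817% ± 0.0293 after shCon EVs, 0.826% ± 0.0601 with shCr EVs and 0.469% ± 0.247 after CrOE EVs. The transcript of the inhibitor was thus lower relative to those of C1ra plus C1s1 in each EV library than in each untreated library. The shCon and shCr EV libraries overlapped. The CrOE EV values rest on 7, 5 and 4 counts of Serping1, and protein was not measured. C1s1 stood at 209% ± 5.86 of C1ra per kb in untreated cells, 206% ± 3.37 after shCon EVs and 212% ± 5.63 with shCr EVs, which overlapped, and at 150.2% ± 8.22 after CrOE EVs, below them all.

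Masp1, which fell least, went from 3.36% ± 0.156 of C1ra per kb in untreated cells to 47.0% ± 5.54 after CrOE EVs. The size of these percentages depends on the length used. After CrOE EVs Masp1 stood at 2.87 CPM per kb of all exons and 5.29 per kb of the longest transcript. Cfb went from 1.33% ± 0.0918 of C3 to 3.66% ± 0.0292. Cd55 went the other way, from 1.97% ± 0.466 of C3 to 0.390% ± 0.0694. C4b stayed in step with C3 there, at 1.70% ± 0.190 in untreated cells and 1.46% ± 0.191 after CrOE EVs, with overlapping libraries. With shCr EVs C4b was lower relative to C3, at 1.08% ± 0.161, and so was Cfb, at 1.08% ± 0.0871. Neither ratio with shCr EVs overlapped the untreated or shCon EV libraries. For these and the other ratios, 8 in all over 6 comparisons, an exact two-sided permutation test of 3 against 3 libraries cannot go below p = 0.1 before any adjustment. Ratios whose groups do not overlap reach that value.

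**Figure D3:**
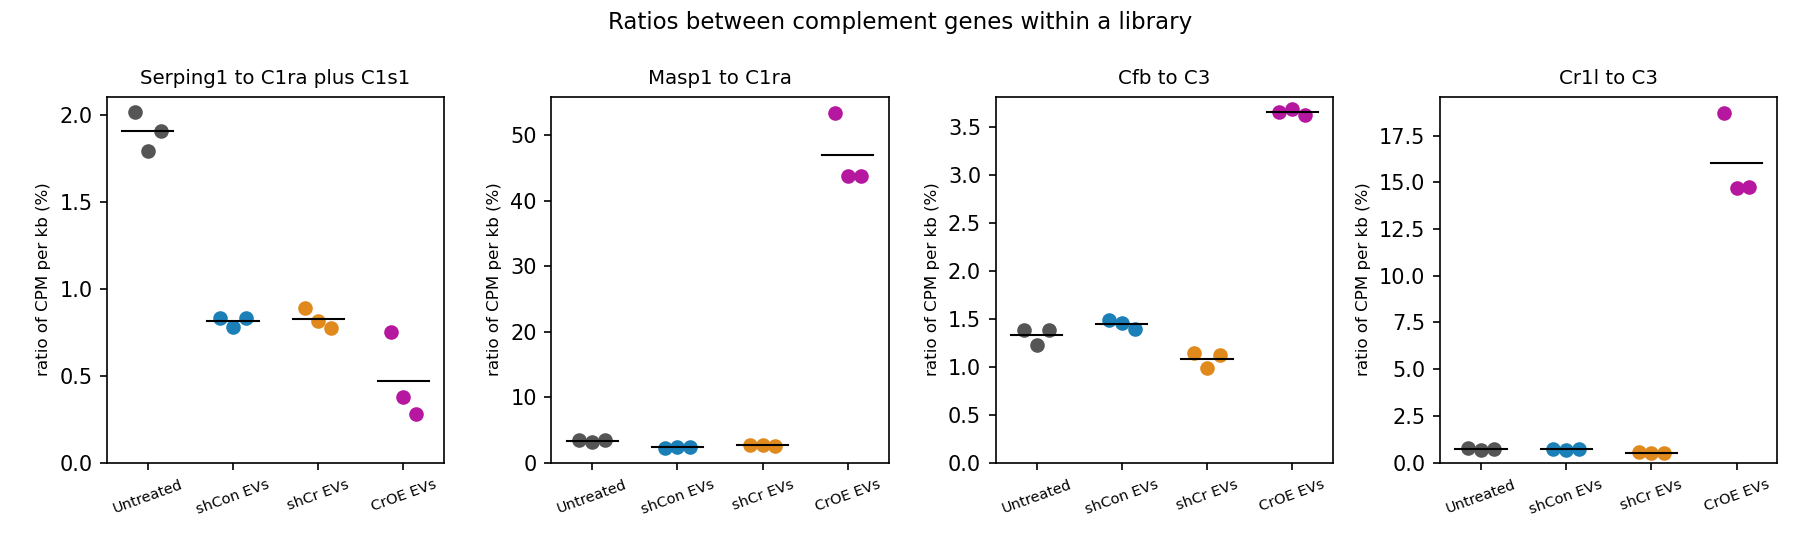
Ratios of complement genes in each library, as percent of the levels per kb, by group, with 1 point per library and lines at the mean. Serping1 relative to C1ra plus C1s1 is highest in the untreated libraries (1.79% to 2.02%), and Masp1 relative to C1ra is highest in the CrOE EV libraries (43.7% to 53.3%).

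The rest of the complement system was read from a list of 51 genes, of which 50 had a row and 25 passed the filter. Of the 25 that did not, 8 had 0 counts in every library, among them C1qa, C1qb and C1qc, the recognition unit that carries C1r and C1s, and the mannose-binding lectins Mbl1 and Mbl2. None of the 25 exceeded 13.0 counts in a library; Cfd, the protease that activates factor B, had at most 2. Of the terminal components that form the membrane pore, C6, C7, C8a, C8b and C9 had at most 6 counts. C8g, the gene of another C8 chain, passed the filter at 3.11 CPM in untreated cells and was lower after CrOE EVs (-1.41, adjusted p = 0.000197, edgeR's quasi-likelihood test). C2, which forms the C3-cleaving enzyme with C4b, stood at 0.385 CPM in untreated cells.

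After CrOE EVs 12 of the 25 were lower and 7 higher than in untreated cells, beside 37% and 36.7% of all tested genes. The 7 include Colec10, whose call is no result, and Masp2, whose counts are uncertain, for reasons given below. Clu, the gene of clusterin, an inhibitor of the terminal pathway, had 148, 159.5 and 154 CPM in untreated libraries and 3.11, 3.64 and 3.79 after CrOE EVs (log2 fold change -5.45, SE 0.086, adjusted p = 7.08e-14, edgeR's quasi-likelihood test). C3ar1, the receptor of the C3a fragment, fell from 1.20 to 0.273 CPM (-2.11). Cd55b, the copy of Cd55, fell to 0, 0 and 2.29 counts, at the floor, and was at least 5.07-fold lower.

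Cr1l, the gene of Crry, the rodent membrane inhibitor of C3 activation, rose. It had 28.9, 25.4 and 28.7 CPM in untreated libraries and 96.5, 97.8 and 93.3 after CrOE EVs (log2 fold change 1.79, SE 0.060, adjusted p = 2.21e-11, edgeR's quasi-likelihood test). Relative to C3 per kb, Cr1l went from 0.718% ± 0.0676 to 16.1% ± 2.28 (SD, n = 3). The size of these percentages depends on the length used. After CrOE EVs Cr1l stood at 9.26 CPM per kb of all exons and 24.8 per kb of the longest transcript. Cd46, the gene of membrane cofactor protein, also rose, from 2.25 to 4.58 CPM (1.03, adjusted p = 0.000681), and 14.2% of its exon length overlaps a gene on the opposite strand. Of the membrane inhibitors, Cd55 thus fell after CrOE EVs against untreated cells, and Cr1l and Cd46 rose. Cd59a and Cd59b were not called in that comparison. By edgeR, Cd46 also rose after shCon EVs against untreated cells (0.67, adjusted p = 0.0282). For Cd46, CrOE against shCon EVs was no call (0.36, adjusted p = 0.124), but CrOE against shCr EVs was (0.62, adjusted p = 0.0135). Cd59b was called higher with CrOE EVs (2.88 CPM) than with shCon EVs (1.01 CPM, adjusted p = 8.81e-06, edgeR). The same held against shCr EVs (1.04 CPM, adjusted p = 8.58e-06). Csmd1 and Csmd3, also in the wider list, were lower by edgeR's quasi-likelihood test. Csmd1 went from 5.21 to 0.159 CPM (-5.01, adjusted p = 2.37e-09) and Csmd3 from 0.904 to 0.362 CPM (-1.30, adjusted p = 0.000482). Masp2 rose from 0.573 CPM (3.80). Of the exon length of Masp2, 54.9% overlaps Tardbp on the opposite strand, so its counts are uncertain. Colec10 had 1 to 5 counts in the other libraries and 16 to 25 in a CrOE EV library, and passed the filter only through that group, so its call as higher is no result.

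After shCon EVs 7 of the 25 were higher and 6 lower than in untreated cells, where 38.1% of all tested genes were called. The lowest were Clu (-1.67), Csmd1 (-1.67) and Cd59b (-1.24), and the highest Csmd3 (1.17), Hc (1.14) and Cfp (1.10). Cfp and Hc were not called in the F-test over the 4 groups (adjusted p = 0.0731 and 0.0893, edgeR). Cfp stood at 4.32, 8.04 and 4.71 CPM in the untreated libraries, whose mitochondrial shares were 0.495%, 1.64% and 0.991%, and at 3.95 CPM in the shCr EV library with a share of 0.622%. The part of that share in the result was not tested. By edgeR's quasi-likelihood test Cr1l was also higher (0.24, adjusted p = 0.00829). After shCr EVs 5 were higher and 5 lower, where 37.3% of all tested genes were called, with Itgb2 (0.93), C4bp (0.85) and C1rb (0.49) highest and Clu (-1.39), Cd59b (-1.21) and Csmd1 (-1.18) lowest. With shCr against shCon EVs 4 were higher (C1rb, Colec12, C1s2 and Clu) and Csmd3 was lower (-2.08), where 8.73% of all genes were called. The higher counts of C1rb (0.39) and C1s2 (0.34) stand beside those of C1ra and C1s1, with which they share sequence. With CrOE EVs 13 were lower and 5 higher than with shCon EVs (36.1% and 36.5% of all genes), and 12 lower and 6 higher than with shCr EVs (37% and 36.9%). Colec10 and Masp2, with the limits given above, are among the higher genes in both of these comparisons.

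**Figure D4:**
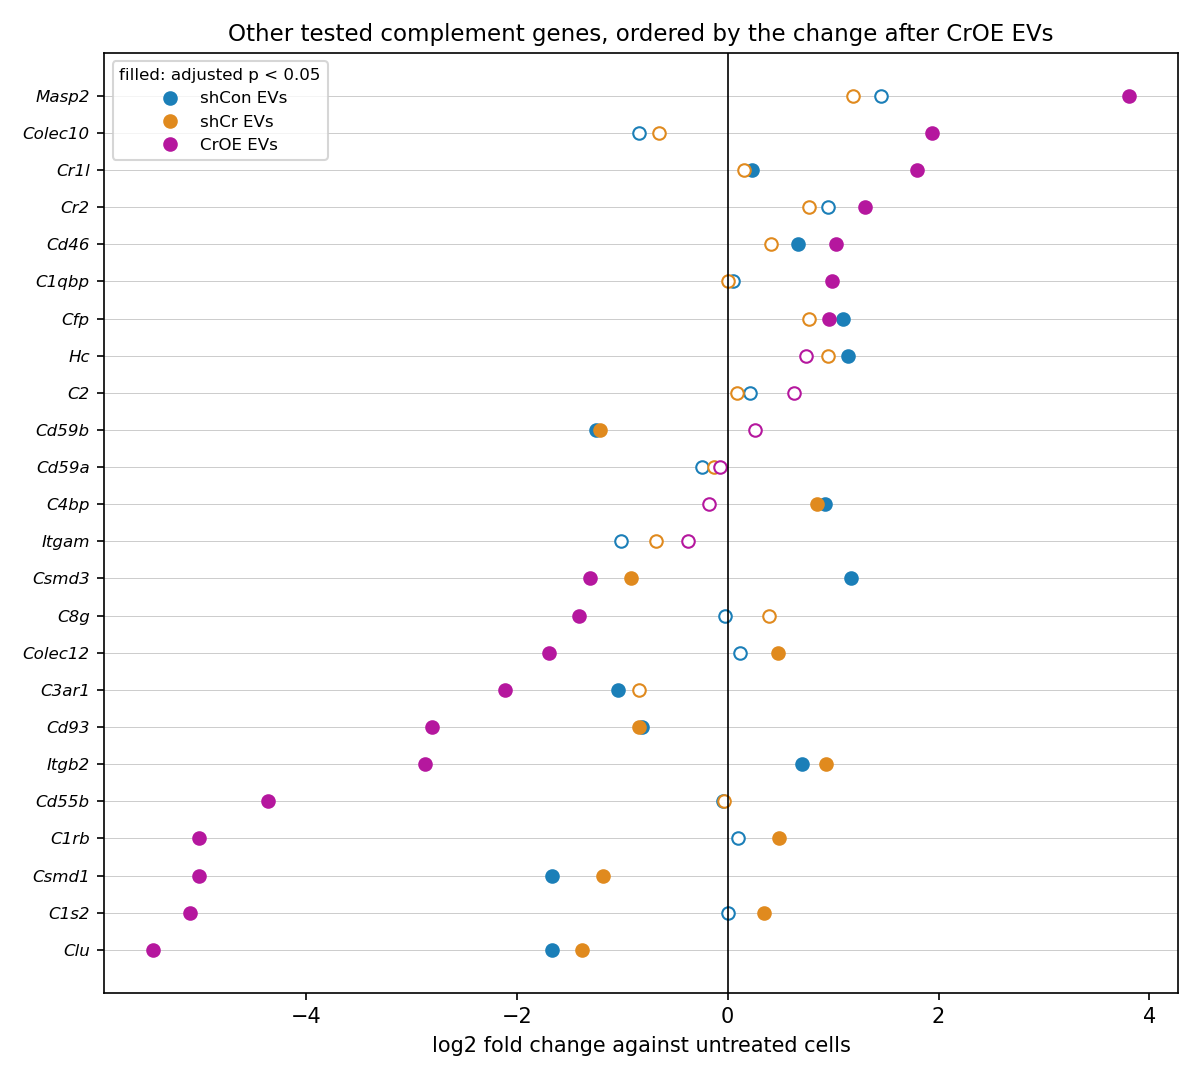
Log2 fold change of 24 of the 25 tested genes of the wider complement list after each kind of EV against untreated cells; filled points are calls by edgeR. After CrOE EVs Clu (-5.45) is lowest and Masp2 (3.80) is highest, while the fitted value of Cd55b is no bound because its CrOE EV libraries lie at the floor.

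Signals known to induce complement genes were read from a list of 24 genes, all of which passed the filter. It holds receptors, Janus kinases, STAT and interferon regulatory factors, NF-kB subunits and C/EBP factors. After CrOE EVs 20 were lower and 2 higher than in untreated cells, with a median log2 fold change of -0.96, beside 37% lower and 36.7% higher among all genes. Il1r1, the interleukin-1 receptor, fell from 104 to 9.11 CPM (-3.52), the largest fall in the list. The 2 that rose were Rela (0.45) and Ifnar1 (0.15). After shCon EVs 11 were lower and 3 higher (20.2% and 18% of all genes), with Il1r1 (-1.21) and Cebpd (-0.56) lowest and Irf9 (0.24) among the higher genes. After shCr EVs 9 were lower and 4 higher (18.8% and 18.4% of all genes), with Hif1a (-0.82) and Il1r1 (-0.78) lowest and Ifngr2 (0.30) among the higher genes. With shCr against shCon EVs 4 were higher (5.22% of all genes), led by Cebpd (0.45) and Il1r1 (0.43), and Hif1a was lower (-0.51), as were 3.51% of all genes. All of these were calls by edgeR's quasi-likelihood test. Whether they bear on the complement genes was not tested.

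Macrophages are another source of C3 and were read through 8 markers. Their summed level was 129 to 140.3 CPM without EVs, 123 to 134 after shCon EVs, 174 to 246 with shCr EVs and 32.3 to 38.3 after CrOE EVs. It was carried by Lyz2 and Cd14, and 4 of the 8 passed the filter. Lyz2 had 46.9 ± 4.86 CPM in untreated cells, 78.0 ± 5.98 after shCon EVs, 146 ± 35.0 with shCr EVs and 1.25 ± 0.138 after CrOE EVs (SD, n = 3), the same order of groups as C3 from CrOE EVs up to shCr EVs. Ptprc, which marks all leukocytes, averaged at most 0.130 CPM in a group, and Adgre1 and Tyrobp at most 0.0224 and 0.0119 CPM. Csf1r (2.43 CPM in untreated cells) and Cd68 (5.64 CPM) were measurable and were called lower after CrOE EVs (-1.28 and -0.88), as was Cd14 (78.3 to 30.5 CPM). These markers did not share the order of Lyz2 and C3. Against untreated cells Cd14 was also called lower after shCon EVs (-0.91) and shCr EVs (-0.71), where C3 was higher. Csf1r and Cd68 were not called in either of those comparisons. The part of these markers in the result was not tested.

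For each member the tested genes with the most similar pattern were found by the root-mean-square difference of centred log2 CPM over the 12 libraries. C1s1 was closest to C1rb (0.12) and C1s2 (0.14), its neighbours in the complement list. C3 was closest to Fam43a (0.082) and Cers4 (0.095), C1ra to Prr16 (0.16) and Rin2 (0.17), and C4b to Ggt7 and Dnm1 (0.15 each). Serping1 was closest to Penk (0.24) and Scara3 (0.27), and Cd55 to Clec14a (0.19) and Adamts9 (0.22). Cfb was closest to Axl (0.10) and Fyco1 (0.11), and Masp1 to Glul (0.065) and Sowahc (0.096). Among the 100 genes closest to Serping1 were 3 other members, and among those closest to C3, Cfb and Masp1 there was none.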

How the data were processed

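RNA from 3T3 cells was sequenced as directional poly(A) libraries, per the labels' protocols. Estimated counts by gene symbol, unscaled between libraries, were deposited by the authors in 1 table. The unit was read from the values: 39.6% are not whole (tolerance 1e-06). The submitters' processing notes name featureCounts and mm39. The aligner, annotation and use of strand are not given in the sources used here. The design had foreseen raw counts, and the same test was used on values rounded to whole numbers. In 27 rows, with at most 0.259% of a library's counts, a spreadsheet had turned the symbol into a date.

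Genes were filtered by filterByExpr and scaled by TMM, and tested with edgeR 4.0.16 (R 4.3.3) in a quasi-likelihood F-test. The model held all 12 libraries with a mean per group (8 residual degrees of freedom). Adjustment was by Benjamini-Hochberg over 14279 genes, and a call is an adjusted p under 0.05. The biological coefficient of variation was 8.90%. SEs of log2 fold changes came from the F statistic, and CPM are TMM-scaled. Exon lengths, shared 31-base stretches and exon overlaps came from GENCODE M21, without coordinates, since it is not the build in the notes. Promoters of 4 members were in the RefSeq table (GRCm38.p6).

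The members and lists were chosen with earlier results of these data known. Named by rule were the members, the 3 highest and 3 lowest calls of the wider complement list with a fixed set of its genes, the 2 highest and 2 lowest signal calls, and the 2 nearest patterns. Of the genes so chosen, 2 are counted but not reported here by name. Other complement genes without calls, and the markers given singly, were named after their values were seen. On counts simulated for CrOE EVs against untreated cells, edgeR recovered 180 of 200 genes changed 2-fold (90%) with 11 false calls among 14049 genes. Only those 200 genes differed there, whereas 73.7% of genes were called in the real comparison. The simulation therefore cannot give the scaling error or false-call rate of that comparison. Intervals and floors (3 counts per library) cover counting error only. The replicate number was not taken as a pairing, because it is not stated to mark shared cultures. Correlations of same-numbered deviations ran from -0.20 to 0.32, and with 3 libraries per group they cannot exclude a pairing. Alternatives were other size factors, library totals, DESeq2 1.42.0, other filters, a model of 2 groups, the replicate block, a 2-fold threshold, each library left out and, chosen after seeing the data, near-identical copies summed.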

Additional observations from a re-analysis of the deposited data

How the results depend on the processing

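Over 8 members and 6 comparisons, alternatives other than leaving out a library gave 396 results, of which 376 kept their direction and their side of the threshold, 18 lost a call and 2 gained one. Of the 18, 16 came from asking for at least a 2-fold change. With that threshold, the members called fell to 1 for shCon EVs against untreated cells, 0 for shCr EVs against untreated cells and 0 for shCr against shCon EVs, since their changes are smaller. Calls among the other complement genes fell to 7, 3 and 1 in these comparisons. Of all tested genes, 6.04%, 6.28% and 0.756% met that threshold. At 10 or more counts in every library, the other complement genes called after CrOE EVs against untreated cells fell to 12. Fewer genes were tested there, 12317, of which 9447 were called. Median-of-ratios size factors, library totals and DESeq2 moved no member across the threshold. Summing copies moved none of the 18 results of C1ra, C1s1 and Cd55 it was run for.

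Leaving out each library in turn gave 576 results: 545 kept their direction and their side of the threshold, 27 lost a call, 2 gained one and 2 changed sign. The sign changes were C4b after shCr EVs against untreated cells, no call in either direction (0.05 without untreated replicate 2 and 0.0899 without shCr EV replicate 1; range -0.16 to 0.09). Members called for shCr against shCon EVs ranged from 1 to 6, with 1 left without any 1 shCon EV replicate or without shCr EV replicate 2. Calls among the other complement genes ranged from 8 to 15 for shCon EVs against untreated cells and from 3 to 5 for shCr against shCon EVs. Calls among all tested genes ranged from 4250 to 6789 and from 632 to 1396 in these 2 comparisons. With all libraries they were 5447 and 1247. The 4 settings that left 1 member called had 632 to 958 calls among all genes for shCr against shCon EVs. The causes were not tested; these fits have fewer libraries.

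Same-numbered libraries of different groups correlated at -0.20 to 0.32 in their deviations from the group means, above 0.1 in 5 of 18 pairs, and 4 of 12 libraries were closest to their own number. With the replicate block, all 48 results of the members kept their direction and their side of the threshold, with C3 at 0.60 after shCr EVs. Depth limits Serping1 and Cd55 after CrOE EVs and Cfi in every group.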
